A study of Sus scrofa with 2 samples.

Results

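The nuclear genes for subunits of respiratory complexes II, III, IV and V were followed across the myofibers of pig psoas major. Members were all features whose gene symbol began with SDHA to SDHD, UQCR, COX4 to COX8 or ATP5, and 33 of the 31780 features in the list met this rule. They comprised 3 genes of complex II, 5 of complex III, 12 of complex IV and 13 of complex V. The assay was 10x Visium spatial transcriptomics. A section lies on a slide of barcoded capture spots, and molecules are counted by their unique molecular identifiers (UMIs). The samples were 2 cryosections of 15 µm from female Landrace pigs, called sections 1 and 2, with no treatment and no genetic modification named in the labels. The labels describe muscle taken from 2 pigs, and the sections occupied capture areas D1 and C1 of the same slide. Each Visium spot can cover several myofibers, so the classes below are ranges of myosin RNA and not single cells.

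Spots were classed by the RNA of the myosin heavy chains MYH7 (slow, type I), MYH2 (fast, type IIA) and MYH4 (fast, type IIB). A spot with at least 5 UMIs of these genes was MYH7-dominant if MYH7 made up at least 0.75 of them, MYH2/MYH4-dominant if it made up at most 0.5, and mixed in between. MYH2/MYH4-dominant spots were then divided within each section by the tertiles of the MYH4 share of MYH2 + MYH4 UMIs into MYH4-rich, middle and MYH4-poor spots. The lower tertile was 0 in both sections, so MYH4-poor spots were those without a MYH4 UMI. The upper tertile was 0.214 in section 1 and 0.20 in section 2. The classes were therefore unequal, with 391, 206 and 300 MYH4-poor, middle and MYH4-rich spots in section 1, and 508, 327 and 489 in section 2. MYH2 and MYH4 are related neighbouring genes, so reads may be shared between them, and MYH1 was not among the features under that symbol.

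The respiratory chain passes electrons to oxygen across the inner mitochondrial membrane and stores the energy as a proton gradient. Complex II (succinate dehydrogenase) takes electrons from succinate and has no subunit encoded in mitochondrial DNA. Complex III moves electrons to cytochrome c and complex IV (cytochrome c oxidase) moves them to oxygen, and both contain mitochondrially encoded core subunits beside the nuclear ones. Complex V, the ATP synthase, uses the gradient to turn a ring of c-subunits and make ATP. Slow fibres of mammalian muscle are known as oxidative and rich in mitochondria, and several subunits of complexes IV and V exist as isoforms encoded by separate genes.

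ATP5MC1, ATP5MC2 and ATP5MC3 encode the same mature c-subunit behind different mitochondrial targeting peptides, and their RNA levels were not ordered alike across the myofibers. Their promoter windows are therefore shown, from 250 bases before to 50 bases after the RefSeq gene start in Sscrofa11.1, at chr12:25110290-25110589 (plus strand), chr5:18879884-18880183 (minus strand) and chr15:81094248-81094547 (minus strand). The genes themselves span 25110540 to 25113481 on chromosome 12, 18871025 to 18879933 on chromosome 5 and 81091037 to 81094297 on chromosome 15. Each window is printed 5′ to 3′ on the strand of its gene, and capitals mark matches to the motifs named after the sequences.
ATP5MC1: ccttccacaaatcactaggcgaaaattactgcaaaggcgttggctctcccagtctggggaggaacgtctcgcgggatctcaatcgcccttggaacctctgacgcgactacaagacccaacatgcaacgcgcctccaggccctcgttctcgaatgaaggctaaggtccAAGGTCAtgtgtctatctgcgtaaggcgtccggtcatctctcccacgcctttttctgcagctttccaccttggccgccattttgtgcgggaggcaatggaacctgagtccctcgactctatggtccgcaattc
ATP5MC2: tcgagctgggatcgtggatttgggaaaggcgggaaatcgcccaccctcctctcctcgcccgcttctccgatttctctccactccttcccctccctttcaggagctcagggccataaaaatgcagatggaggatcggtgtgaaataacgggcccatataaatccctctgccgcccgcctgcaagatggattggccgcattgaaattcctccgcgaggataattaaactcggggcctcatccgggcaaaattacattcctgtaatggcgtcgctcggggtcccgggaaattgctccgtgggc
ATP5MC3: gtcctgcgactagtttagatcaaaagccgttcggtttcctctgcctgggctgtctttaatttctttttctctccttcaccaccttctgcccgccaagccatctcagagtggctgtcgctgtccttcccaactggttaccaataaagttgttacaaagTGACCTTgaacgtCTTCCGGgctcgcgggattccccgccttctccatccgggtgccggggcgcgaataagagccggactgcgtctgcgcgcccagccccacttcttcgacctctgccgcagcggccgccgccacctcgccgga

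Among the 33 members, 21 matched a RefSeq promoter window by symbol or older symbol. Motif letters were searched on both strands, and they did not overlap in the windows printed. AAGGTCA, which reads TGACCTT on the other strand, are the letters bound by estrogen-related receptors and occurred in 7 of the 21 windows (33.3%) against 3.78% of all 19531 windows of the same length. These windows belonged to ATP5F1A, ATP5MC1, ATP5MC3, ATP5ME, COX7C, SDHB and SDHD. CCGGAAG, which reads CTTCCGG on the other strand, is an ETS-family motif and occurred in 10 (47.6%) against 11% of all windows. GCATGCGC, which reads GCGCATGC on the other strand, is an NRF1 motif and occurred in 2 (9.52%) against 3.06%, and AAGATGGCG, which reads CGCCATCTT on the other strand, is a YY1 motif and occurred in 1 (4.76%) against 1.47%. The windows of 8 of the 21 members held none of the 4 motifs. They belonged to ATP5F1D, ATP5MC2, ATP5MG, ATP5PB, ATP5PF, COX7A1, SDHC and UQCR10. Apart from ATP5MC2, these genes were called higher in MYH7-dominant spots, with the largest fold of any tested member for SDHC (log2 1.12). A link between motifs and RNA levels was not tested. A match describes letters only, and binding was not measured.

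After filters on spots, 2430 spots remained in section 1 and 2878 in section 2, with medians of 928.5 and 1350.5 UMIs per spot. Section 1 contributed 731 MYH7-dominant, 221 mixed and 897 MYH2/MYH4-dominant spots, and section 2 contributed 821, 291 and 1324. Another 581 and 442 spots had too few myosin UMIs to be classed. Members took 95680 of 3633249 UMIs in section 1 (2.63%) and 131384 of 5382677 in section 2 (2.44%). The libraries shared 2104 barcodes, since both capture areas carry the same layout, and no spot was the same in both. Of the fibre markers, the symbols CKM and DES matched, and together they made up 3.23% and 3.28% of kept UMIs. COX6A2 and COX7A1 were the members with most UMIs (12659 and 16503 UMIs for COX6A2, 12445 and 16270 for COX7A1). At the other end, COX4I2 had 48 UMIs in either section, and COX6B2, known as a testis isoform, had 2 in section 1 and 0 in section 2. A count of 0 allows up to 3 UMIs. COX4I2 and COX6B2 did not reach the minimum for testing, so 31 of 33 members were tested.

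Levels below are CPM, the UMIs of a gene in every 1000000 scaled UMIs of a class in a section, with section 1 before section 2. They are tags from the 3′ end of poly(A) RNA, and such tags may not count different genes alike. Counts of different genes are set side by side as isoform shares and ratios, as sums and their ratios, and in naming the members with most UMIs. Tests used the sums per section and class in one edgeR quasi-likelihood model, with p-values adjusted over all 4216 genes tested. These p-values measure the spread between 10 sums from 2 sections, with the spread borrowed across genes (prior degrees of freedom 413 beside 4 of the sums).

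Of the 31 tested members, 28 were higher in MYH7-dominant than in MYH2/MYH4-dominant spots, 1 was lower and 2 did not pass the test. Over all genes, 16.0% were called higher and 14.4% lower. The median log2 fold change of the members was 0.62 (0.65 in section 1 and 0.63 in section 2), beside -0.01 for all genes tested. The sign was the same in both sections for 30 of 31 members. Together the members took 2.98% and 2.85% of UMIs in MYH7-dominant spots, against 1.99% and 1.84% in MYH2/MYH4-dominant spots, which is 1.5 and 1.55 times as much. More RNA per fibre and more fibre cross-section of one kind under a spot cannot be told apart in these sums.

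**Figure D1:**
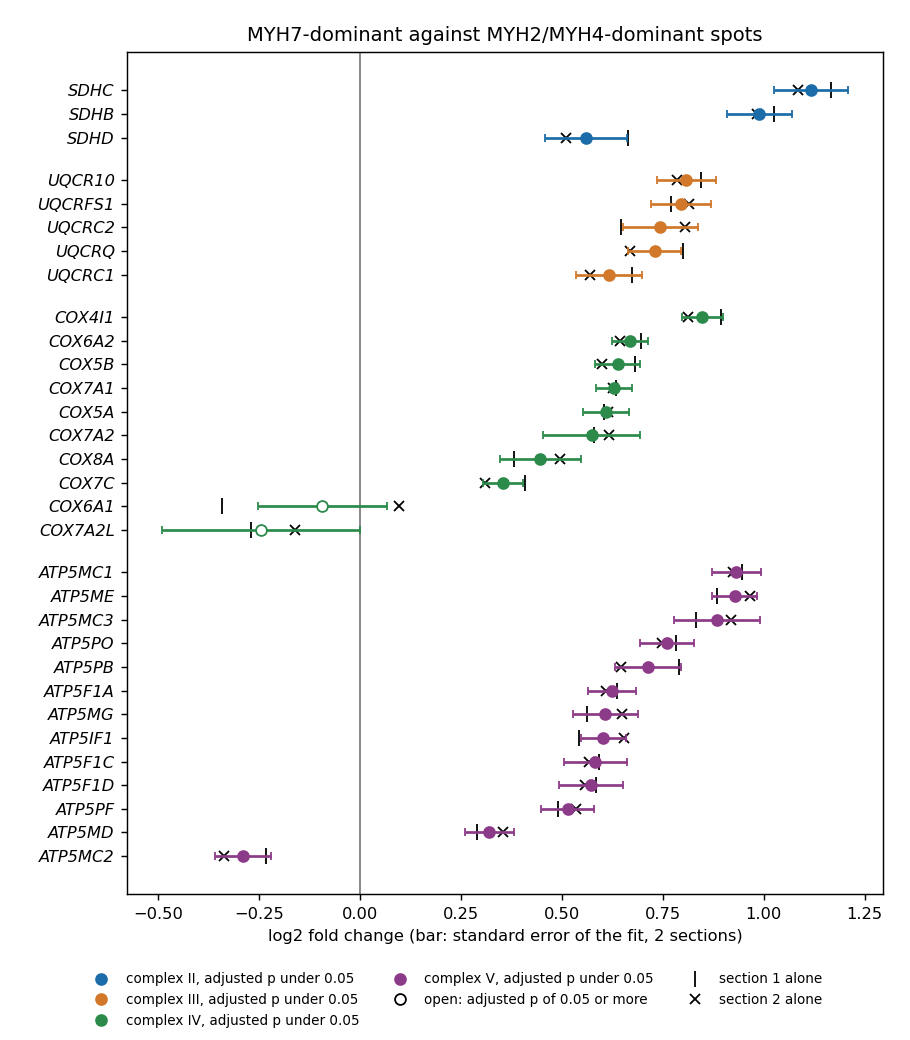
Log2 fold change of each tested member between MYH7-dominant and MYH2/MYH4-dominant spots, ordered within complexes. Circles give the edgeR estimate with its standard error, filled where the adjusted p was under 0.05, and the line and cross marks give sections 1 and 2. SDHC stands highest at 1.12, and ATP5MC2 is the only filled point below 0, at -0.29, a sign that turned to 1.19 when sums were scaled by the number of spots.

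Depth and other cell types moved with the classes. MYH7-dominant spots had medians of 2961 and 3598 UMIs, against 599.5 to 1079.5 in the 3 MYH2/MYH4-dominant classes of section 1 and 799 to 1549 in those of section 2. Matrix genes took 0.0701% and 0.0697% of UMIs in MYH7-dominant spots, against 0.176% and 0.148%, and 10 of the 10 tested were lower. Macrophage genes took 0.00951% and 0.00866%, against 0.0225% and 0.0189% (3 of 4 lower), and adipocyte genes 0.0104% and 0.010%, against 0.0260% and 0.0179% (3 of 3 lower), with LEP at 0 in every class. COL6A2 was at 0 in MYH7-dominant spots of section 2. Of endothelial genes 0 of 3 passed by edgeR in either direction (0 at an unadjusted p under 0.05, and 0 by DESeq2), of smooth muscle and pericyte genes 1 of 5 was higher and 3 lower, and red cell genes were not tested. The part of these differences in the members' result was not tested, and 28 members were also higher with matrix-rich spots left out (median 0.54) and in spots of interquartile depth (median 0.66).

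Scaling the sums by the number of spots instead of by their UMIs moved the median of all genes to 1.47, and changes are given here relative to UMIs. Under that scaling the median of the members was 2.10 and 31 of 31 were higher. COX6A1, COX7A2L and ATP5MC2 thereby changed sign, to 1.38, 1.23 and 1.19.

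Complex II had the largest median difference of the 4 complexes, and 3 of its 3 tested genes were higher in MYH7-dominant spots (median 0.99). SDHA, whose feature carried no symbol, was outside this median and lay below it (log2 0.67, with 0.49 in section 1 and 0.81 in section 2). SDHC, a membrane anchor that holds the enzyme in the inner membrane, had 358 and 364 CPM in MYH7-dominant spots, against 164 and 180.0 CPM in MYH2/MYH4-dominant spots. Its values did not overlap between the classes, and neither did those of SDHB and SDHD below. The SDHC fold of 2.17 was the largest of any tested member (log2 1.12, SE 0.09, edgeR adjusted p = 7.93e-28). SDHB, the iron-sulfur subunit that carries electrons towards ubiquinone, had 477 and 505 CPM, against 245 and 257 CPM (log2 0.99, SE 0.08, adjusted p = 2.24e-28). SDHD, the other anchor, had 222 and 234 CPM in MYH7-dominant spots, against 140 and 166 CPM (log2 0.56, SE 0.10, adjusted p = 5.72e-07). SDHD thus differed least of the 3, and mixed spots lay between the classes for SDHB (371 and 356 CPM), SDHC (213 and 210 CPM) and, in section 1, SDHD (195 CPM). As a sum, complex II took 0.103% and 0.109% of UMIs in MYH7-dominant spots, against 0.0548% and 0.0583% in MYH2/MYH4-dominant spots (1.87 and 1.86 times).

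In complex III, 5 of 5 members were higher in MYH7-dominant spots, with log2 fold changes between 0.62 and 0.81. UQCR10, a small subunit of the complex, had 696 and 589 CPM, against 403 and 344 CPM in MYH2/MYH4-dominant spots (log2 0.81, SE 0.07, adjusted p = 4.61e-24). UQCRFS1, the Rieske iron-sulfur protein that hands electrons towards cytochrome c, had 562 and 569 CPM, against 331 and 328 CPM (log2 0.80, SE 0.07, adjusted p = 3.62e-22). For both genes the lowest MYH7-dominant value exceeded the highest MYH2/MYH4-dominant one. The same held for many other members called higher, such as COX4I1, COX7C, COX8A, ATP5ME, ATP5MD and ATP5IF1. The share of all genes with this trait was not counted. The core protein UQCRC1 gave the smallest value (0.62), and UQCRC2 (0.74) and UQCRQ (0.73) lay between. The sum of the complex was 0.273% and 0.264% of UMIs, against 0.169% and 0.160%.

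In complex IV, 8 of 10 tested members were higher in MYH7-dominant spots and 2 did not pass (median 0.59). COX4I1, the regulatory subunit 4 isoform of most tissues, had 2519 and 2439 CPM in MYH7-dominant spots, against 1367 and 1414 CPM in MYH2/MYH4-dominant spots (log2 0.85, SE 0.05, adjusted p = 8.45e-48), the largest difference in this complex. COX5A and COX5B, subunits on the matrix side, differed by 0.61 and 0.64 on the log2 scale. COX7C, a small membrane subunit, had 2203 and 2090 CPM, against 1682 and 1712 CPM (log2 0.35, SE 0.05, adjusted p = 6.81e-11). COX8A, the ubiquitous isoform of subunit 8, had 230 and 219 CPM, against 179 and 157 CPM (log2 0.45, SE 0.10, adjusted p = 7.02e-05). Both differed less than the median of the complex, and no other COX8 gene was among the members.

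The muscle isoforms of subunits 6A and 7A were the more abundant partner in every class. COX6A2, the heart and muscle isoform of subunit 6A, had 4087 and 3646 CPM in MYH7-dominant spots, against 2570 and 2351 CPM in MYH2/MYH4-dominant spots (log2 0.67, SE 0.04, adjusted p = 5.31e-40). Its ubiquitous partner COX6A1 had 64.7 and 66.9 CPM, against 83.4 and 62.5 CPM, with opposite signs in the sections (-0.34 and 0.10) and no call (log2 -0.09, adjusted p = 0.714). COX6A2 made up 98.4% and 98.2% of the UMIs of the pair in MYH7-dominant spots, against 96.9% and 97.4%. The ratio of COX6A2 to COX6A1 UMIs was 63.2 (exact 95% interval 53.3 to 75.5) and 54.5 (47.2 to 63.2) in MYH7-dominant spots, against 30.8 (24.5 to 39.3) and 37.6 (30.9 to 46.3) in MYH2/MYH4-dominant spots. The intervals of the classes did not overlap within a section, although they cover counting error only, as do those below. Without matrix-rich spots the difference was not kept in section 2, where the ratio was 57.5 in MYH7-dominant spots, against 59.6 in MYH2/MYH4-dominant spots. In section 1 it was then 69.6, against 40.3.

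Of subunit 7A, COX7A1, the heart and muscle isoform, had 3948 and 3585 CPM in MYH7-dominant spots, against 2586 and 2352 CPM in MYH2/MYH4-dominant spots (log2 0.63, SE 0.04, adjusted p = 5.54e-36). COX7A2, the ubiquitous isoform, had 164 and 151 CPM, against 118 and 98.3 CPM (log2 0.57, SE 0.12, adjusted p = 2.26e-05). The ratio of COX7A1 to COX7A2 was 24.1 and 23.7 in MYH7-dominant spots, against 21.9 and 23.9 in MYH2/MYH4-dominant spots, and the 95% intervals in MYH7-dominant spots (21.6 to 26.9 and 21.5 to 26.2) held the values of the other class. Mixed spots had 35.4 and 30.5. The order of the classes depended on the choice of spots, with mean ratios of 29.1 in MYH7-dominant spots, against 23.5 in MYH2/MYH4-dominant spots, at interquartile depth, and of 23.9, against 24.9, with at least 10 myosin UMIs. COX7A2L, a related protein that takes part in joining complexes III and IV into supercomplexes, had 90 and 151 UMIs in all. Its level was 23.7 and 27.3 CPM, against 28.9 and 32.2 CPM, and did not pass (log2 -0.25, adjusted p = 0.503).

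**Figure D2:**
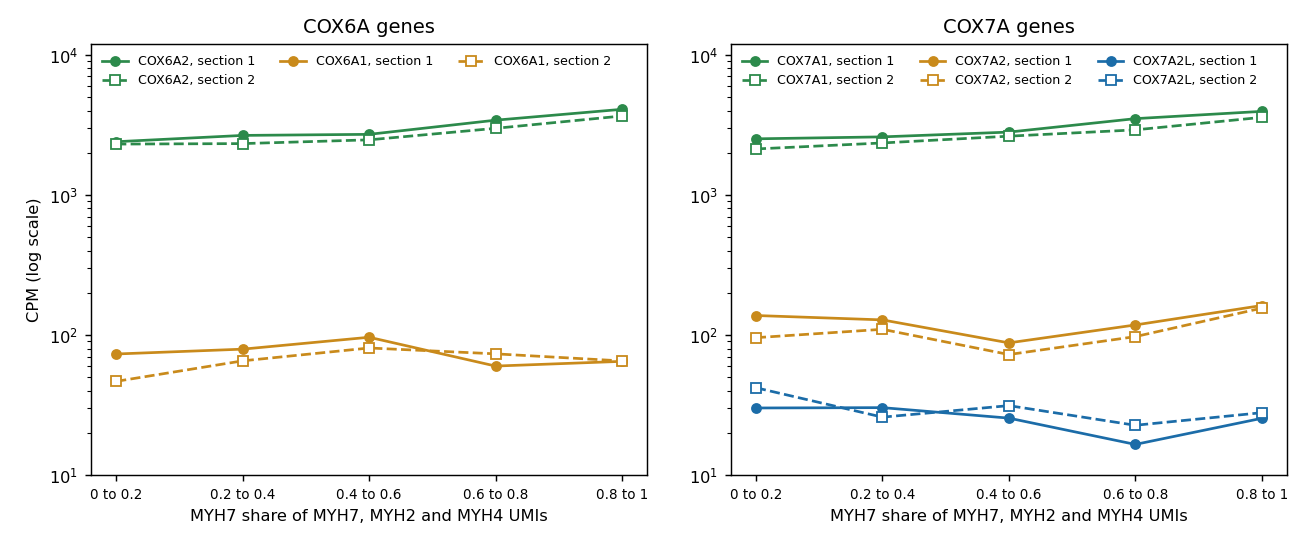
CPM of the COX6A and COX7A isoforms over 5 bins of the MYH7 share, on a log axis, by section. COX6A2 and COX7A1 lie far above COX6A1, COX7A2 and COX7A2L in every bin, and in the class comparison COX6A2 had 4087 and 3646 CPM in MYH7-dominant spots, against 2570 and 2351 CPM in MYH2/MYH4-dominant spots.

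COX4I2, the subunit 4 isoform known from lung, was too rare to test. It had 32 and 24 UMIs in MYH7-dominant spots, against 4 and 14 UMIs in MYH2/MYH4-dominant spots. COX4I1 made up 99.4% and 99.7% of the UMIs of the pair in MYH7-dominant spots, against 99.7% and 99.4%, so the order of the classes differed between sections.

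In complex V, 12 of 13 members were higher in MYH7-dominant spots and 1 was lower (median 0.61). ATP5ME, subunit e of the membrane part that shapes ATP synthase dimers, had 1625 and 1510 CPM in MYH7-dominant spots, against 891 and 792 CPM in MYH2/MYH4-dominant spots (log2 0.93, SE 0.06, adjusted p = 3.56e-45). ATP5MD, another small dimer-associated subunit, had 1063 and 1017 CPM, against 893 and 807 CPM, and its log2 difference of 0.32 (SE 0.06, adjusted p = 1.54e-06) was the smallest positive one among all members. ATP5ME and ATP5MD belong to the same membrane part of the enzyme, and their estimates were separated by several times their standard errors. The peripheral stalk, which holds the catalytic head still, gave 0.76 for ATP5PO (OSCP), 0.71 for ATP5PB (subunit b) and 0.51 for ATP5PF (subunit F6). The catalytic head and central stalk gave 0.62 for ATP5F1A (alpha), 0.58 for ATP5F1C (gamma) and 0.57 for ATP5F1D (delta). ATP5F1B (beta) was not among the members. ATP5MG (subunit g) gave 0.61. ATP5IF1, which encodes an inhibitor of ATP hydrolysis by the enzyme and not a structural subunit, had 1394 and 1369 CPM, against 969 and 877 CPM (log2 0.60, SE 0.06, adjusted p = 3.62e-22).

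The c-subunit genes diverged. ATP5MC1 had 1290 and 1205 CPM in MYH7-dominant spots, against 679.4 and 642.5 CPM in MYH2/MYH4-dominant spots (log2 0.93, SE 0.06, adjusted p = 3.86e-41). ATP5MC3 had 247 and 212 CPM, against 141 and 114 CPM (log2 0.88, SE 0.11, adjusted p = 4.09e-14). ATP5MC2 had 509.1 and 473.7 CPM in MYH7-dominant spots, against 592.7 and 598.6 CPM. ATP5MC2 was the 1 member called lower relative to UMIs (log2 -0.29, SE 0.07, adjusted p = 2.32e-04), while scaling by spots turned it to 1.19. In both sections its MYH2/MYH4-dominant level exceeded its MYH7-dominant level, with -0.23 and -0.34 on the log2 scale. The call was lost without the filter on low counts (-0.19, adjusted p = 0.141) and in spots of interquartile depth (-0.21, adjusted p = 0.0965).

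The ratio of ATP5MC1 to ATP5MC2 UMIs does not depend on how the sums are scaled. It was 2.53 (95% interval 2.36 to 2.72) and 2.54 (2.39 to 2.71) in MYH7-dominant spots, against 1.15 (1.02 to 1.29) and 1.07 (0.98 to 1.17) in MYH2/MYH4-dominant spots. Mixed spots lay in between, at 1.89 and 1.79. Of all c-subunit UMIs, ATP5MC1 made up 63.0% and 63.7% in MYH7-dominant spots, against 48.1% and 47.4% in MYH2/MYH4-dominant spots. ATP5MC2 made up 24.9% and 25.1%, against 41.9% and 44.2%. The ratio of ATP5MC3 to ATP5MC2 was likewise higher, at 0.485 and 0.448, against 0.238 and 0.191. By contrast, the ratio of ATP5MC1 to ATP5MC3 was 5.22 and 5.68, against 4.81 (3.97 to 5.87) and 5.62 (4.80 to 6.60), whose intervals held the MYH7-dominant values in section 1 and section 2 alike. Under the other choices of spots tried, the mean ratio of ATP5MC1 to ATP5MC2 stayed between 2.50 and 2.59 in MYH7-dominant spots, against 0.92 to 1.23 in MYH2/MYH4-dominant spots. The longest identical run between transcripts of ATP5MC1 and ATP5MC2 was 20 bases, of ATP5MC2 and ATP5MC3 17 bases, and of ATP5MC1 and ATP5MC3 14 bases.

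Bins of the MYH7 share resolved the same axis more finely. The bins had edges at 0.2, 0.4, 0.6 and 0.8, and they held 335, 386, 236, 238 and 654 spots in section 1 and 495, 596, 331, 278 and 736 in section 2. ATP5MC1 had 619.3, 707.9, 775.8, 955 and 1305 CPM in the bins of section 1, and 580.6, 624.9, 739.5, 876.8 and 1222 CPM in those of section 2. It was higher at every step in both sections. ATP5MC2 had 636.5, 593.8, 509.6, 494 and 512 CPM in section 1, and 683.2, 575.6, 515.5, 455.7 and 470.8 CPM in section 2. Its values declined over the first 4 bins and were slightly above that in the top bin. ATP5MC3 had 133, 147, 139, 165 and 248 CPM in section 1 and 103, 106, 148, 151 and 215 CPM in section 2, so its largest step was the last one. The ratio of ATP5MC1 to ATP5MC2 was 0.97, 1.19, 1.52, 1.93 and 2.55 in section 1, and 0.85, 1.09, 1.43, 1.92 and 2.60 in section 2. It was higher at every step, and it was under 1 only in the bottom bin, where the 95% intervals (0.768 to 1.23 and 0.715 to 1.01) included 1.

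**Figure D3:**
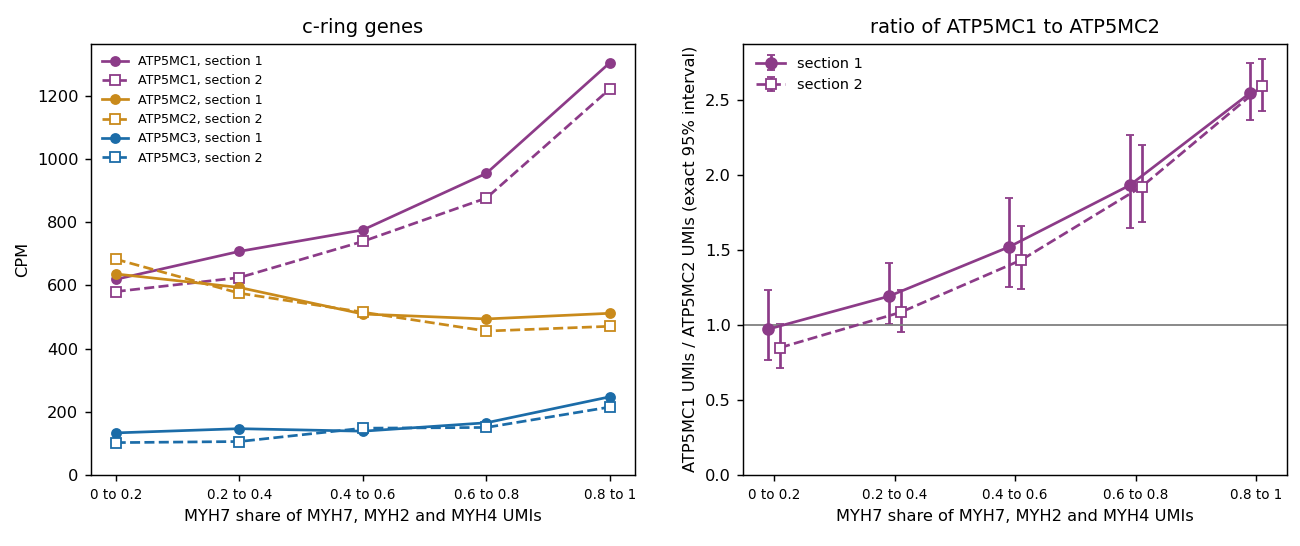
CPM of ATP5MC1, ATP5MC2 and ATP5MC3 over 5 bins of the MYH7 share in each section, and the ratio of ATP5MC1 to ATP5MC2 UMIs with exact 95% intervals (counting error only). The ratio was 0.97 and 0.85 in the lowest bin and 2.55 and 2.60 in the highest. The lower ATP5MC2 level at high MYH7 share is relative to UMIs and changed sign per spot.

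A linear slope over these bins, a log2 difference per unit of MYH7 share, called 28 of 31 members higher and 1 lower. The background was 14.0% higher and 14.1% lower of 3774 genes, and the median slope was 0.89 for the members beside -0.05 for all genes. The bins reuse the spots of the class comparison and add no separate evidence. Slopes were largest for SDHC (1.65), SDHB (1.44), ATP5MC1 (1.32), ATP5MC3 (1.28), ATP5ME (1.28) and COX4I1 (1.18). ATP5MC2 had a slope of -0.53 (SE 0.13, adjusted p = 0.0029), which became 1.90 when scaled by spots and was called in section 2 alone but not in section 1 alone. Single sections called 21 (section 1) and 23 (section 2) members higher. Such a test uses the bins of a single pig, so its p-values measure departure from a line and hold no spread between pigs. Of the 31 members, 27 in section 1 and 28 in section 2 were highest in the top bin, and 18 and 23 were lowest in the bottom bin. A rise at each of the 4 steps was seen for 13 and 17 members.

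The complexes differed in how far they spread over the bins. The share of UMIs in the top bin was 2.03 and 2.28 times that in the bottom bin for complex II, 1.92 and 1.95 times for complex III, 1.67 and 1.72 times for complex IV, and 1.57 and 1.73 times for complex V. Complex II, counted without SDHA, therefore stood first in both sections, and complexes IV and V were not ordered alike. Complex III was likewise counted without UQCR11 (5247 and 7109 UMIs) and complex IV without COX7B (3652 and 5414 UMIs), whose features carried no symbol. Between classes, complex IV took 1.57% and 1.47% of UMIs in MYH7-dominant spots, against 1.05% and 0.969%, and complex V took 1.03% and 1.00%, against 0.710% and 0.652%. The ratio of complex IV to complex V was 1.52 and 1.47, against 1.48 and 1.49. The ratio of complex II to complex IV was 0.0654 and 0.0737, against 0.0520 and 0.0602. Tests of differences between complexes were not made.

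**Figure D4:**
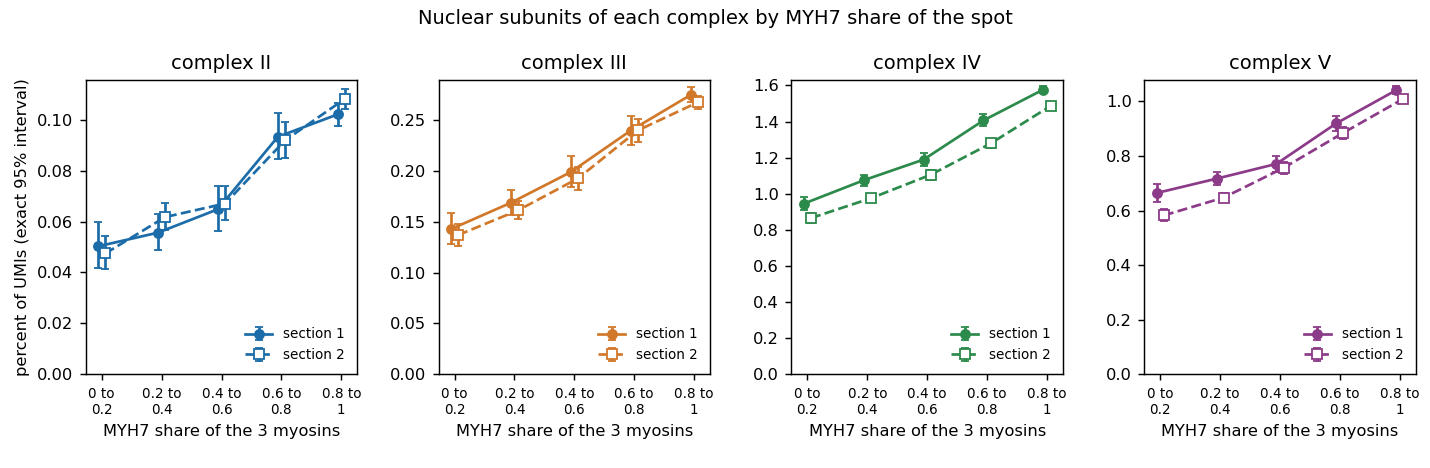
Share of UMIs (percent) taken by the nuclear subunits of each complex over 5 bins of the MYH7 share, by section, with exact 95% intervals that cover counting error. The top bin was 2.03 and 2.28 times the bottom bin for complex II and 1.57 and 1.73 times for complex V. SDHA, UQCR11 and COX7B, whose features carried no symbol, are not in the sums.

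The mitochondrially encoded partners were compared as sums. COX1, COX2 and COX3, the core of complex IV, took 13.2% and 12.7% of UMIs in MYH7-dominant spots, against 7.81% and 7.43% in MYH2/MYH4-dominant spots (1.69 and 1.71 times). ATP6 and ATP8 of complex V took 2.68% and 2.62%, against 1.72% and 1.70% (1.56 and 1.54 times). CYTB of complex III took 1.45% and 1.40%, against 1.1% and 1.04% (1.32 and 1.35 times). Nuclear UMIs per mitochondrially encoded UMI were thus lower in MYH7-dominant spots for complex IV (0.119 and 0.116, against 0.135 and 0.13) and higher for complex III (0.188 and 0.189, against 0.153 and 0.155). For complex V the values were 0.385 and 0.383, against 0.412 and 0.384, which were nearly equal in section 2. The nuclear sums of complexes III and IV left out UQCR11 and COX7B here too.

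Related gene lists moved by different amounts in the same model. Nuclear subunits of complex I had 27 of 29 genes higher (median 0.55), and the mitochondrially encoded genes of complexes III to V had 5 of 6 higher (0.71) and those of complex I 5 of 7 higher (0.28). Cytochrome c and its partners had 2 of 3 higher (0.72), and mitochondrial carriers and import genes 8 of 12 higher (0.49). Assembly factors of complexes III to V had 4 of 13 tested genes higher and 1 lower (median 0.14), and regulators of mitochondrial genes 1 of 4 higher (0.01). Glycolytic genes had 1 of 9 higher and 8 lower (median -1.54), and of the 2 fibre markers 1 was higher and 1 lower.

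Within MYH2/MYH4-dominant spots, the comparison by MYH4 share asked whether members also differ along the fast fibre types. MYH4-rich spots (300 and 489 spots) were set against MYH4-poor spots (391 and 508 spots). Median UMIs per spot were 599.5 and 799 in MYH4-rich, 791 and 921.5 in MYH4-poor, and 1079.5 and 1549 in middle spots. A spot with few MYH2 and MYH4 UMIs may enter either outer class by counting alone, and the part of this in the result was not tested. Of the 31 tested members, 10 were lower in MYH4-rich spots, 21 did not pass and 28 had a negative estimate. None was higher by edgeR (0 at an unadjusted p under 0.05, and 0 by DESeq2). DESeq2 gave no adjusted p for part of the members, so it could not call them. SDHC, UQCRC1, COX7A2L and COX6A1 were among these. Over all genes 1.16% were called higher and 1.26% lower, and the median was -0.28 for the members beside -0.002 for all genes. The members' sum was 1.76% and 1.59% of UMIs in MYH4-rich spots, against 2.13% and 2.02% in MYH4-poor spots.

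The classes also differed in MYH7. Among myosin UMIs, MYH7 made up 22.5% and 23.7% in MYH4-rich spots, against 30.4% and 29.8% in MYH4-poor spots. With limits of 0.9 and 0.25 on the MYH7 share, chosen after this was seen, edgeR called 0 of 31 members (7 were lower at an unadjusted p under 0.05, median -0.19) and 35 genes in all. That setting also left fewer spots and 2360 genes to test in place of 4216, and the cause of the lost calls was not tested. Without section as a block, 5 members passed. Matrix genes took 0.20% and 0.174% of UMIs in MYH4-rich spots, against 0.149% and 0.118% (3 of 10 higher), and macrophage genes 0.0326% and 0.0210%, against 0.0171% and 0.0152% (1 of 4 higher). Of the adipocyte, endothelial and smooth muscle lists, 0 genes passed by edgeR or DESeq2 (of 3, 3 and 5 tested), and 2 smooth muscle genes were higher at an unadjusted p under 0.05. COL6A2 was at 0 in section 1 of both classes and LEP throughout. The part of these cells in the result was not tested, and 10 members were lower with matrix-rich spots left out, where UQCRC1 lost its call (-0.51, adjusted p = 0.106) and COX4I1 gained one (-0.30, adjusted p = 0.0384). Scaled by spots, the median of all genes was -0.24 and that of the members -0.51.

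Members of every complex were among the 10, with SDHC alone from complex II and UQCRC1 alone from complex III. SDHC had 125 and 126 CPM in MYH4-rich spots, against 163 and 223 CPM in MYH4-poor spots (log2 -0.66, SE 0.19, edgeR adjusted p = 0.0298). UQCRC1, a core protein of complex III, had 206 and 209 CPM, against 321 and 334 CPM (log2 -0.66, SE 0.15, adjusted p = 0.00201). UQCRC1 was much closer between sections than SDHC, whose section values were -0.38 and -0.83. COX5B had 768 and 804 CPM in MYH4-rich spots, against 1139 and 1132 CPM (log2 -0.52, SE 0.09, adjusted p = 5.05e-06). COX5A had 764 and 711 CPM, against 1046 and 953.5 CPM (log2 -0.44, SE 0.09, adjusted p = 6.18e-04). SDHC lost its call without the filter on low counts (adjusted p = 0.0696), without the block (0.0672) and at interquartile depth (0.321). SDHC also lost it with at least 10 myosin UMIs (0.297) and with the lower limit of MYH4-rich spots raised to a share of 0.3 (0.132). UQCRC1 lost its call at interquartile depth (adjusted p = 0.0608) beside the setting without matrix-rich spots. For COX5A, COX5B, UQCRC1 and SDHC no MYH4-rich value reached a MYH4-poor one. The same held for COX7A1 and COX6A2, and for COX4I1 and ATP5MC1, which did not pass. The share of all genes with this trait was not counted.

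The muscle isoforms moved less. COX7A1 had 2297 and 2088 CPM in MYH4-rich spots, against 2800 and 2660 CPM (log2 -0.32, SE 0.06, adjusted p = 2.46e-04). COX6A2 had 2184 and 2145 CPM, against 2761 and 2515 CPM (log2 -0.28, SE 0.06, adjusted p = 0.0026). COX7C (-0.30), ATP5MD (-0.38), ATP5ME (-0.38) and ATP5F1A (-0.35) completed the 10 and are named after their values were seen. Of members that did not pass, COX4I1 stood closest to the threshold, with 1355 and 1175 CPM in MYH4-rich spots, against 1451 and 1522 CPM (log2 -0.26, adjusted p = 0.0501). The others of highest level were ATP5IF1 (-0.22, adjusted p = 0.258), ATP5MC1 (-0.28, adjusted p = 0.161) and ATP5PF (-0.19, adjusted p = 0.574). SDHB (-0.30, adjusted p = 0.494) and SDHD (-0.10, adjusted p = 0.931) did not pass either.

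**Figure D5:**
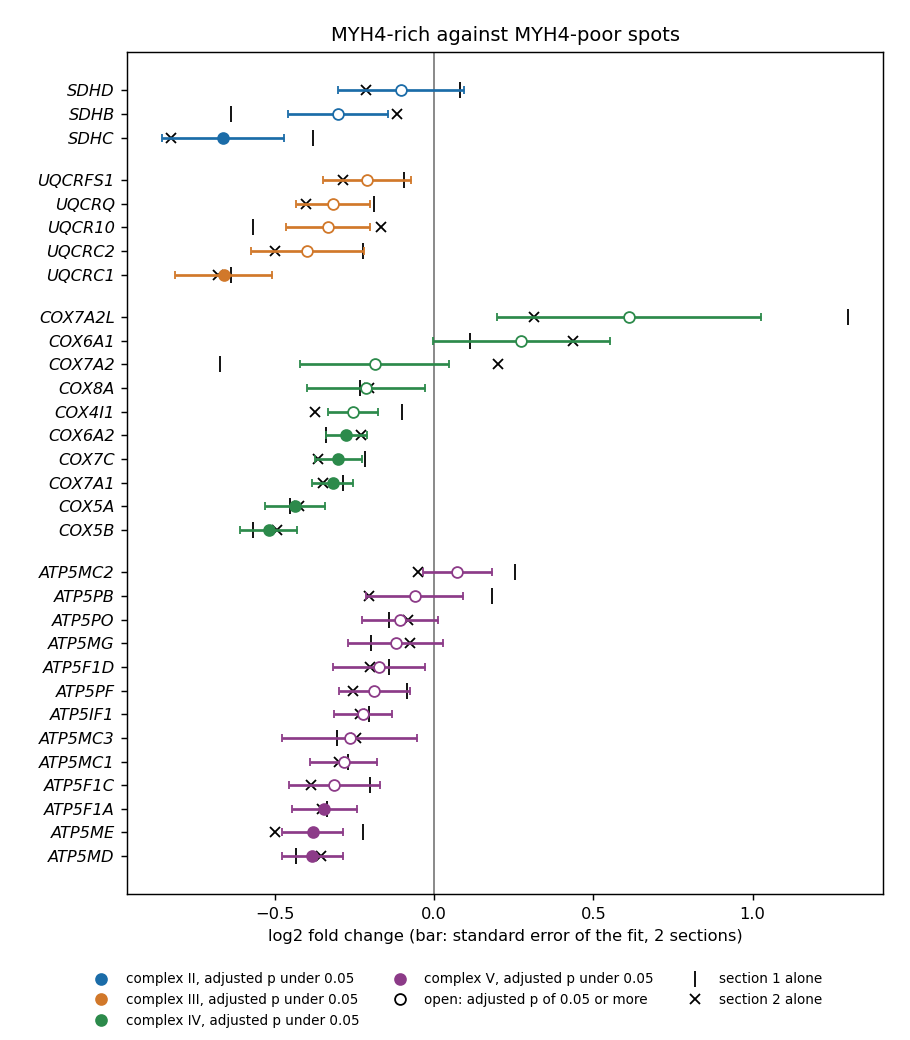
Log2 fold change of each tested member between MYH4-rich and MYH4-poor spots, with standard errors, drawn as in the slow and fast plot. Filled points (10 of 31) all lie below 0, with the lowest estimates for SDHC and UQCRC1 at -0.66. DESeq2 gave no adjusted p for either gene, and SDHC lost its edgeR call under several settings. With limits of 0.9 and 0.25 on the MYH7 share, edgeR called no member. COX7A2L lies at 0.61 with the widest bar and did not pass.

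Estimates above 0 were found for 3 members, none of which passed. They were COX7A2L (0.61, adjusted p = 0.668), COX6A1 (0.27, adjusted p = 0.814) and ATP5MC2 (0.07, adjusted p = 0.899), the 3 that also had negative estimates in the slow and fast comparison. Both comparisons use the same MYH2/MYH4-dominant sums. Next in order came ATP5PB (-0.06), SDHD, ATP5PO (-0.11), ATP5MG (-0.12) and ATP5F1D (-0.17). The isoforms COX7A2 (-0.19, adjusted p = 0.872), COX8A (-0.21, adjusted p = 0.775) and ATP5MC3 (-0.27, adjusted p = 0.739) did not pass, and COX7A2 had opposite signs in the sections (-0.67 and 0.20).

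ATP5MC2 had 651 and 598 CPM in MYH4-rich spots, against 546.3 and 619.7 CPM in MYH4-poor spots, so its order differed between sections. ATP5MC1 had 594.4 and 568.2 CPM, against 717.5 and 698.5 CPM. The ratio of ATP5MC1 to ATP5MC2 was 0.91 (95% interval 0.73 to 1.15) and 0.95 (0.80 to 1.13) in MYH4-rich spots, against 1.31 (1.09 to 1.59) and 1.13 (0.98 to 1.30) in MYH4-poor spots. These intervals overlapped in both sections.

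Per complex, the share of UMIs in MYH4-rich spots was 0.774 and 0.768 of that in MYH4-poor spots for complex II, 0.789 and 0.749 for complex III, 0.810 and 0.779 for complex IV, and 0.874 and 0.812 for complex V. Median log2 fold changes were -0.30, -0.33, -0.27 and -0.22 for complexes II, III, IV and V. SDHA, UQCR11 and COX7B were outside these sums and medians. Nuclear UMIs per mitochondrially encoded UMI were 0.145 and 0.134, against 0.136 and 0.134 for complex IV, 0.444 and 0.407, against 0.409 and 0.384 for complex V, and 0.153 and 0.152, against 0.161 and 0.162 for complex III. Of the related lists, the mitochondrially encoded genes of complexes III to V had 5 of 6 lower (median -0.34), nuclear complex I 1 of 29 lower (-0.18), and glycolysis 4 of 9 higher (0.21). Mitochondrially encoded complex I, cytochrome c and partners, and carriers and import each had 1 lower (of 7, 3 and 12), and assembly factors and regulators had 0 called by edgeR (of 13 and 4), 0 at an unadjusted p under 0.05 and 0 by DESeq2.

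A slope over 4 bins of the MYH4 share (0, above 0 to 0.15, above 0.15 to 0.3, above 0.3) also called 10 members lower and 0 higher by edgeR (0 higher at an unadjusted p under 0.05). The background was 1.96% higher and 2.39% lower of 2344 genes, and the median slope was -0.62 for the members beside 0.0004 for all genes. Among members that passed, slopes were steepest for UQCRC1 (-1.46), COX5B (-1.17), ATP5ME (-1.10) and COX5A (-0.95). UQCRC2 (-1.22, adjusted p = 0.0784), SDHC (-1.20, adjusted p = 0.121) and SDHB (-1.14, adjusted p = 0.0513) had slopes of like size and did not pass. ATP5MC1 (-0.89, adjusted p = 0.0167) and COX4I1 (-0.68, adjusted p = 0.0225) passed over these bins, whereas SDHC and ATP5F1A (-0.70, adjusted p = 0.087), which were called between the classes, did not. ATP5MC2 did not pass either (0.43, adjusted p = 0.479). Within single sections the slope called fewer members, with 4 lower in section 1 alone and 2 in section 2 alone (11 and 13 at an unadjusted p under 0.05). These tests too use the bins of a single pig and hold no spread between pigs. Of the 31 members, 14 and 19 were highest at a share of 0, and 17 and 16 were lowest above 0.3. The ratio of ATP5MC1 to ATP5MC2 was 1.46, 1.32, 0.957 and 0.873 over the bins of section 1, and 1.13, 1.15, 1.30 and 0.713 over those of section 2. It fell below 1 above a share of 0.3 in both sections, and only section 1 was ordered throughout.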

How the data were processed

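RNA of 2 psoas major sections was measured. The deposited values are UMI counts for each gene in each spot, not normalized. The authors counted them in Space Ranger 1.1 on a Sscrofa11.1 reference of their own, from which they dropped the Y chromosome and in which they restored earlier models of the MYH2 and MYH4 genes. Per the labels, the libraries also held porcine carrier RNA. The sources used here do not state how it was handled in the counts. Spots that the study removed by hand were not left out here. Following the study's filters, spots with over 25% mitochondrially encoded UMIs (8 and 2 spots), the lowest 2% of spots by UMIs, genes in fewer than 15 spots of a section and 5 haemoglobin genes were removed. Of the 31780 features, 15086 carried no symbol and could not be members.

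UMIs were summed per section and class or bin and tested with the quasi-likelihood test of edgeR 4.0.16 (R 4.3.3, TMM, minimum count 10, section as a block, Benjamini-Hochberg threshold 0.05 over all genes tested), because spots are not replicates. Alternatives were scalings, filters, no block, depth, matrix-rich spots, myosin minimum, limits, DESeq2 1.42.0 and single sections. The model was checked on simulated counts that held no difference between sections beyond depth. The contrast of MYH4-rich and MYH4-poor spots was not part of that check. Members and lists were chosen with earlier results of these data known. The replicate number is the section, and every class of a section comes from the same muscle, which gives the pairing. Ratios and shares carry exact 95% binomial intervals.

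Named genes were the isoform sets, the 8 largest and 4 smallest log2 fold changes of each class comparison, the SDH genes, and members that did not pass (if over 8, the 4 of highest level). Other members are given by value only. Lists were other respiratory, carrier, assembly, regulator and glycolytic genes, and markers of matrix, fat, vessel, smooth muscle, macrophage, red and fibre cells. Promoter windows and coordinates came from RefSeq Sscrofa11.1, with 12 members unmatched.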

Additional observations from a re-analysis of the deposited data

Results flagged for a closer look

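Some features without a symbol carry subunit genes of these complexes, as named by a reference table through their Ensembl identifiers, and were outside the members. SDHA, the flavoprotein of complex II, had 945 and 1392 UMIs in sections 1 and 2 and was higher in MYH7-dominant than in MYH2/MYH4-dominant spots (log2 0.67, SE 0.09, edgeR adjusted p = 1.76e-11). UQCR11, a small subunit of complex III, had 5247 and 7109 UMIs and was also higher (0.66, SE 0.05, adjusted p = 1.12e-27). It was lower in MYH4-rich than in MYH4-poor spots (-0.35, adjusted p = 0.00474). COX7B, a subunit of complex IV, had 3652 and 5414 UMIs and was higher in MYH7-dominant spots (0.63, SE 0.06, adjusted p = 5.72e-22). SDHAF2, an assembly factor of complex II, had 140 and 183 UMIs and did not pass (0.48, adjusted p = 0.0896). In MYH4-rich against MYH4-poor spots SDHA (-0.43, adjusted p = 0.298) and COX7B (-0.21, adjusted p = 0.399) did not pass.

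The unclassed spots, which had under 5 UMIs of the myosins, entered no comparison. Members took 1.78% and 1.58% of their UMIs. Of c-subunit UMIs in these spots, ATP5MC1 made up 39.4% and 36.9% and ATP5MC2 50.9% and 51.2%.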

How the results depend on the processing

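In the MYH7 class comparison 28 members were called higher under every setting except spot scaling (31), and over the bins 27 or 28, except spot scaling (31) and single sections (21 and 23). ATP5MC2 lost its call in both without the filter on low counts and at interquartile depth. In both MYH4 comparisons the count of members depended on the setting. Leaving out a section leaves no residual degrees of freedom in the class model, so only medians are given there. It leaves 3 and 2 in the slopes over the MYH7 and MYH4 shares, which were tested. Those slope tests use the bins of a single pig and hold no spread between pigs. DESeq2 gave no adjusted p for 12 members in the MYH4 class comparison and could not call them. They were ATP5MC3, ATP5MG, ATP5PB, COX6A1, COX7A2, COX7A2L, COX8A, SDHB, SDHC, SDHD, UQCRC1 and UQCRC2. Low UMI numbers limit COX7A2L, COX6A1, COX4I2 and COX6B2. The cause of the shifts was not tested.

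MYH7-dominant minus MYH2/MYH4-dominant called 1283 genes, and the median of the members was 0.62. Scaling by spots gave 3967 genes and a median of 2.10, and turned COX6A1 to 1.38, COX7A2L to 1.23 and ATP5MC2 to 1.19. Interquartile depth gave 733 genes and a median of 0.66, and DESeq2 gave 629 genes. The median was 0.73 without the filter on low counts, 0.54 without matrix-rich spots, 0.77 with limits of 0.9 and 0.25, and 0.63 to 0.65 when a section was left out.

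MYH4-rich minus MYH4-poor called 10 members lower and 102 genes, with a median of -0.28. Scaling by spots gave 20 members, 205 genes and -0.51, and the limits of 0.9 and 0.25 gave 0 members by edgeR (7 lower at an unadjusted p under 0.05), 35 genes and -0.19. Without the replicate block 5 members and 51 genes were called, and at interquartile depth 6 members and 65 genes. Without the filter on low counts 55 genes were called and the median was -0.32. It was -0.34 with at least 10 myosin UMIs and -0.25 to -0.22 when a section was left out.

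The slope over the MYH7 share called 1062 genes with a member median of 0.89. Scaling by spots gave 3605 genes and 3.33 (all genes 2.34), and turned COX6A1 to 2.33, COX7A2L to 1.94 and ATP5MC2 to 1.90. Interquartile depth gave 614 genes and 0.96. The median was 1.00 without TMM, 1.04 without the filter on low counts, 0.81 without matrix-rich spots, 0.94 with at least 10 myosin UMIs and 0.91 to 0.94 when a section was left out, where 401 to 701 genes were called.

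The slope over the MYH4 share called 10 members lower and 102 genes, with a median of -0.62. Scaling by spots gave 3 members, 32 genes and -1.76 (all genes -1.13). Without the filter on low counts it gave 5 members, 43 genes and -0.70, without the replicate block 6 members and -0.59, and at interquartile depth 6 members and -0.60. The median was -0.65 without TMM, -0.58 without mitochondrially encoded genes, -0.69 without matrix-rich spots, -0.80 with at least 10 myosin UMIs and -0.62 to -0.59 when a section was left out, where 2 to 4 members and 46 to 47 genes were called. The replicate block changed no member's call in the MYH7 comparisons.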
